A study of Homo sapiens with 6 samples.

Results

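The CC chemokines and the single CX3C chemokine of human stromal cells were followed in UE7T-9 cells with and without added SHC4. UE7T-9 is an established human marrow stromal line that was made to divide indefinitely with the hTERT and papillomavirus E7 genes, and both groups carry those genes. UE7T-9 SHC4 cells (3 libraries, genotype SHC4-OE in the labels) received a puromycin-selected lentivirus with SHC4 behind a CMV promoter, and UE7T-9 Cont cells (3 libraries) are described by the study's methods as carrying GFP in the same vector but are titled Nontarget with genotype WT in the labels. The cells of both groups grew in DMEM, and RNA was taken from the cultures in bulk. The labels call the libraries biological replicates without saying whether they were separate infections, clones or cultures, so the spread between them, which is all that a p-value here measures, may be partly technical. They are called controls and SHC4 libraries from here on. In bulk RNA, fewer cells that make a transcript and less transcript in each cell cannot be told apart.

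The genes are CCL2, CCL5, CCL7, CCL8, CCL11, CCL13, CCL20, CCL26, CCL28 and CX3CL1. These 10 of 28181 listed genes were chosen by symbol, in a list drawn up with the measured levels of these libraries and their differences between the groups already known. Their values are therefore a description, and no p-value is given for any single one of them. Chemokines are small secreted proteins that guide leukocytes through receptors coupled to G proteins. The CC class is named for a pair of neighbouring cysteines near its start, whereas CX3CL1 has other residues between them and sits on the cell surface on a mucin stalk until proteases release it. Marrow stromal cells are known to release CCL2, which draws monocytes, and several CC genes are known targets of inflammatory cytokines through NF-kappaB and STAT factors.

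Values are normalized counts, that is gene counts divided by 1 size factor per library. Library totals ranged from 18144993 to 27721397 reads, and a count of 3 reads, taken as the floor of what was measurable, corresponded to a normalized count of 2.50 to 3.53. SHC4 itself had 56.5, 157 and 130 normalized counts in the controls against 134870, 119166 and 155006 with added SHC4, so every library fitted its label. Control replicate 1 stood apart from the other controls. Its log2 values correlated across genes at 0.975 with SHC4 replicate 1 but at 0.967 and 0.962 with the other controls. SHC4 replicate 1 correlated at 0.978 and 0.975 with the other SHC4 libraries. Mean chi-square per gene, higher for libraries less alike, was 30.5 between control replicate 1 and SHC4 replicate 1. It was 74.0 and 62.4 between SHC4 replicate 1 and the other SHC4 libraries, which were 13.1 apart. By this measure SHC4 replicate 1 also stood apart from its group, and the cause was not tested. Values without control replicate 1 are given beside the results that it moves most. Of the 7 mesenchymal stem cell markers checked, all were listed, among them THY1, NT5E and ENG. Of 8 leukocyte markers, 5 were listed, with a summed normalized count of 128 to 148 in the controls against 101 to 122 with added SHC4. The pan-leukocyte gene PTPRC was at 2.95 to 6.82 in the controls and 0 to 2.64 in the SHC4 libraries, and CD3E and MS4A1 were not analysed here. limma and edgeR called 0 of the mesenchymal, leukocyte, endothelial or epithelial markers. An unadjusted limma p below 0.05 was seen for 2 of 7 mesenchymal, 0 of 4 leukocyte, 1 of 4 endothelial and 0 of 3 epithelial markers tested. Over all genes tested the share was 14.4%. DESeq2 called 1, PDGFRB, higher (adjusted p = 0.0171), and 1.05% of all genes with an adjusted p. Without control replicate 1 limma called 2 mesenchymal markers higher, THY1 at 1.67 on the log2 scale (standard error 0.17, adjusted p = 0.00167) and PDGFRB at 1.84 (standard error 0.15, adjusted p = 0.000698). In that fit 1.59% of all genes were called higher. THY1 had 7742, 2940 and 2286 normalized counts in the controls against 7845, 9570 and 7512 with added SHC4, so that control replicate 1 lay with the SHC4 libraries for this marker too. The part of these markers in the values below was not tested.

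Several of the genes lie together on chromosome 17, and the DNA in front of 3 of them, CCL7, CCL8 and CCL13, is shown as a description. All 3 were close to the floor here, so the sequences are not set against their values. No window was matched for CCL2. In GENCODE 29 on GRCh38, CCL2 (34255218 to 34257203), CCL7 (34270221 to 34272242), CCL11 (34285668 to 34288334), CCL8 (34319036 to 34321402) and CCL13 (34356452 to 34358610) follow each other on the plus strand. CCL5 lies farther along on the minus strand (35871491 to 35880793) and overlaps the antisense gene AC015849.1, which was not analysed here, and the strand setting of the counting is unknown. The windows run from 250 bases before to 50 bases after a RefSeq start on GRCh38.p14, and are read in the direction of the gene. They cover chr17:34269971-34270270 for CCL7, chr17:34319185-34319484 for CCL8 and chr17:34356230-34356529 for CCL13, all on the plus strand. Capitals mark the longest run of bases that the 3 windows share.
CCL7: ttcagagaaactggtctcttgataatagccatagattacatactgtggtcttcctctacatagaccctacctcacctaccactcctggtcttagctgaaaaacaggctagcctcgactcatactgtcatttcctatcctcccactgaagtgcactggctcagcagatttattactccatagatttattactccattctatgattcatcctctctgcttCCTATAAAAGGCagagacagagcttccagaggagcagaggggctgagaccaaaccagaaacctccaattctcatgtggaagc
CCL8: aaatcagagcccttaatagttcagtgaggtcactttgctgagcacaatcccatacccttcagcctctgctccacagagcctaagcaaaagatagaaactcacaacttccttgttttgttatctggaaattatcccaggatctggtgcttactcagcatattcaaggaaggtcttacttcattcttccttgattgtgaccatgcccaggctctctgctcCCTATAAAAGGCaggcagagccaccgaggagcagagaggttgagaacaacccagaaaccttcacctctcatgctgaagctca
CCL13: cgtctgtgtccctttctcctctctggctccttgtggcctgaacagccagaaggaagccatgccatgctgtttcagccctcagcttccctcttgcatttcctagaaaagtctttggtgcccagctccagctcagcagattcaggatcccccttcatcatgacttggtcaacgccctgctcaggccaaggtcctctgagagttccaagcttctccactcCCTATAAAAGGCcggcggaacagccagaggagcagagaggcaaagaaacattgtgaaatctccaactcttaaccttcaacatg
The shared run has 12 bases and starts 32 bases before the start of CCL7 and CCL8 and 33 bases before that of CCL13. It holds the TATA box letters TATAAAA and was found in 4 of 35116 windows, the other being that of TCHH. CCL8 and CCL13 shared 15 bases around it.

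CCL26 is shown as well, since it was the gene of the 10 with the clearest gap between the groups at a solid count. It lies on the minus strand of chromosome 7 (75769533 to 75789896), and its window covers chr7:75789697-75789996.
CCL26: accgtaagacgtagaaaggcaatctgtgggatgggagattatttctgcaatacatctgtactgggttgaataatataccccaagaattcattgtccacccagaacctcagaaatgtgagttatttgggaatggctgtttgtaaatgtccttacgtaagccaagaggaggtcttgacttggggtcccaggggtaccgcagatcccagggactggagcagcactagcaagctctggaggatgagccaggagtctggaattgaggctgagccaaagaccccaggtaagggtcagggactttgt
Searched on both strands, 5 motifs had no match in this window. These were TATAAAA, the NF-kappaB core GGGNNNNNCC, the paired STAT half-sites TTCNNNGAA and TTCNNNNGAA, and the AP-1 motif TGANTCA. RefSeq windows were matched for 6 of the 10 genes (7 windows, as CCL28 has a pair of them). TATAAAA was in 3 of the 7 windows and in 4.52% of all windows, and TTCNNNGAA in 3 of 7 (CCL7, CCL8 and CCL13) and 7.66% of all. GGGNNNNNCC was in 2 of 7 (CCL20 and the upstream window of CCL28) against 58.7% of all, TGANTCA in 1 (CCL7) against 7.71%, and TTCNNNNGAA in 0 against 6.44%. The TATAAAA matches lie inside the shared run, and some NF-kappaB matches of CCL20 overlap each other. Such matches describe letters only.

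Levels of different genes were compared as normalized count per kilobase of exon. In UE7T-9 Cont the order was CCL2 (276 ± 78.1 per kilobase, SD, n = 3), CCL5 (190.5 ± 213), CCL26 (151 ± 48.2) and CCL28 (74.9 ± 7.07). CCL5, which ran from 12.2 to 426, overlapped CCL2, CCL26 and CCL28, whereas those 3 kept their order in every control. In UE7T-9 SHC4 the order was CCL2 (305 ± 39.5), CCL28 (95.9 ± 11.9), CCL26 (42.2 ± 4.23), CCL5 (7.76 ± 4.62) and CCL7 (6.12 ± 4.78). There, CCL2, CCL28, CCL26 and CCL5 lay apart from each other in all 3 libraries, while CCL5 and CCL7 overlapped. Per kilobase, CCL26 thus stood above CCL28 in every control and below it in every UE7T-9 SHC4 library. This crossing rests on the exon lengths used, 706 bases for CCL26 and 4524 for CCL28. Before division by length, the normalized count of CCL28 was above that of CCL26 in every library of both groups. The ratio of CCL26 to CCL28 per kilobase, which no scaling of libraries can move, was 1.35, 2.19 and 2.47 in the controls against 0.454, 0.440 and 0.430 with added SHC4. The ratio was chosen after these values were seen.

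**Figure D1:**
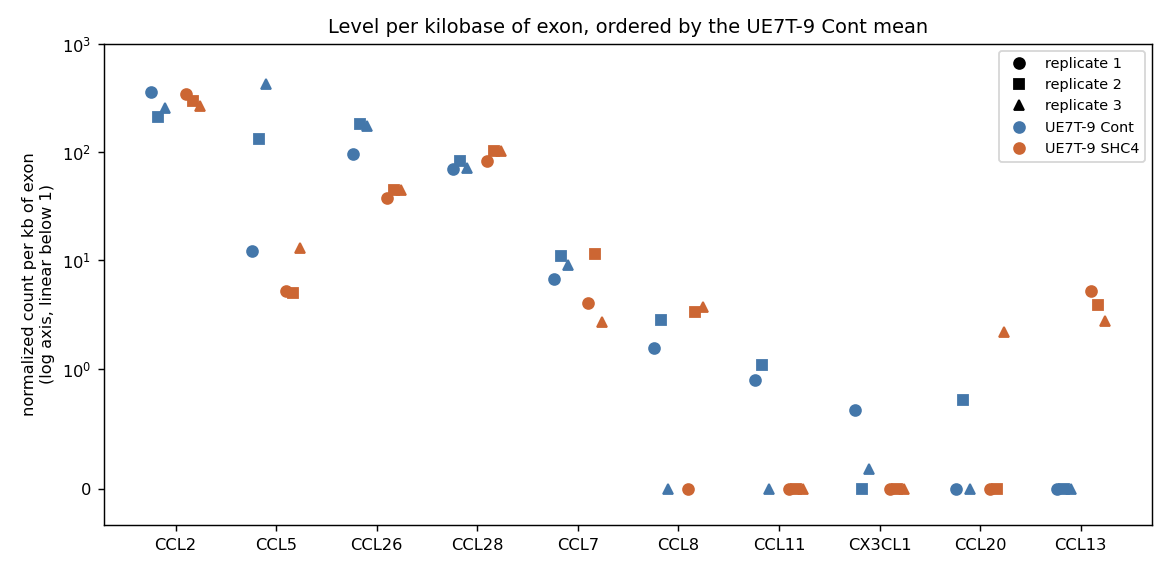
Normalized count per kilobase of exon (log axis, linear below 1) for the 10 genes, ordered by the UE7T-9 Cont mean, with 1 point per library coloured by group and shaped by replicate number. CCL2 had the highest mean in both groups, CCL5 spread from 12.2 to 426 in the controls, and CCL8, CCL11, CX3CL1, CCL20 and CCL13 sat near 0.

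CCL2, the main monocyte attractant of the family and a ligand of CCR2, had the highest mean level per kilobase of the 10 genes in both groups. Its normalized count was 719, 418 and 505 in the controls against 689, 595 and 533 with added SHC4. The groups overlapped fully. The means were 547 ± 155 and 606 ± 78.4 (SD, n = 3 each), with a limma log2 fold change of 0.18 (standard error 0.20), and the log2 fold change was -0.0001032 without control replicate 2.

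CCL7, CCL8 and CCL13 are relatives of CCL2 that also attract monocytes, and all 3 were close to the floor. CCL7 had 6, 8 and 8 reads in the controls against 4, 12 and 2 reads with added SHC4, or normalized counts of 7.71 ± 1.79 and 5.28 ± 4.12 (SD, n = 3 each). Its groups overlapped, as SHC4 replicate 2 was the highest of all 6 libraries. CCL8 had 2, 3 and 0 reads in the controls and 0, 5 and 4 in the SHC4 libraries, which gives no order. CCL13 had 0 reads in all 3 controls and 5, 4 and 2 reads in the SHC4 libraries (normalized counts 4.39, 3.33 and 2.33). All 3 SHC4 libraries were therefore above the controls, but 1 of them was under the floor of 3 reads, so no fold is given. Between CCL2 and CCL13, neighbours of the same cluster, the mean level in the SHC4 libraries was 305 normalized counts per kilobase for the first and 3.94 for the last.

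CCL26 and CCL11 are eotaxins, ligands of CCR3 that attract eosinophils. CCL26 had a normalized count of 67.3, 128 and 124 in the controls against 26.4, 31.6 and 31.4 with added SHC4. Every UE7T-9 SHC4 library lay below every control, and the lowest control was replicate 1. The means were 107 ± 34.1 and 29.8 ± 2.99 (SD, n = 3 each), a ratio of means of 3.57. On the log2 scale limma put the difference at -1.75 (standard error 0.31) and DESeq2 at -1.84 (standard error 0.37). Leaving out a single library gave limma values from -1.59 to -2.05, the latter lacking control replicate 1. CCL11 had 1, 1 and 0 reads in the controls and 0 reads in the SHC4 libraries, so CCL26 was the one of this pair above the floor.

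CCL5, which binds CCR1 and CCR3 and attracts T cells and monocytes, had the widest spread of the 10 genes. Its normalized count was 18.5, 201 and 644 in the controls against 7.91, 7.49 and 19.8 with added SHC4. Control replicate 1 lay inside the range of UE7T-9 SHC4, so the groups overlapped, whereas replicates 2 and 3 were about an order of magnitude or more above it. The highest control exceeded the lowest by 34.8-fold, against 2.64-fold within the SHC4 libraries. The means were 288 ± 322 and 11.7 ± 6.99 (SD, n = 3 each), so the SD of the controls was larger than their mean. The log2 fold change was -3.55 (standard error 1.05) in limma and -4.63 (standard error 1.24) in DESeq2. Leaving out control replicate 1 took the limma value to -4.96 (standard error 0.55), and leaving out control replicate 3 took it to -2.43 (standard error 0.90). CCL5 made up 1.63%, 17.7% and 40.2% of the reads of the 10 genes in the 3 controls and 0.717%, 0.673% and 1.86% in the SHC4 libraries.

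CCL28, a mucosal chemokine that binds CCR10 and CCR3, was measured with over 300 reads in every library. Its normalized count was 319, 376 and 322 in the controls against 372, 461 and 468 with added SHC4. The groups overlapped only through control replicate 2 and SHC4 replicate 1. The means were 339 ± 32.0 and 434 ± 53.7 (SD, n = 3 each), with a limma log2 fold change of 0.35 (standard error 0.15) that stayed between 0.29 and 0.46 when a library was left out. CCL28 lies on chromosome 5 (43376645 to 43412391, minus strand).

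CCL20, the ligand of CCR6 (chromosome 2, 227805739 to 227817564), and CX3CL1, the ligand of CX3CR1 (chromosome 16, 57372458 to 57385048), were barely measured. CCL20 had 0, 1 and 0 reads in the controls against 0, 0 and 3 with added SHC4. CX3CL1 had 4, 0 and 1 reads in the controls and 0 in all 3 SHC4 libraries. A difference between the groups was not detectable at this depth for either gene, nor for CCL8 and CCL11.

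**Figure D2:**
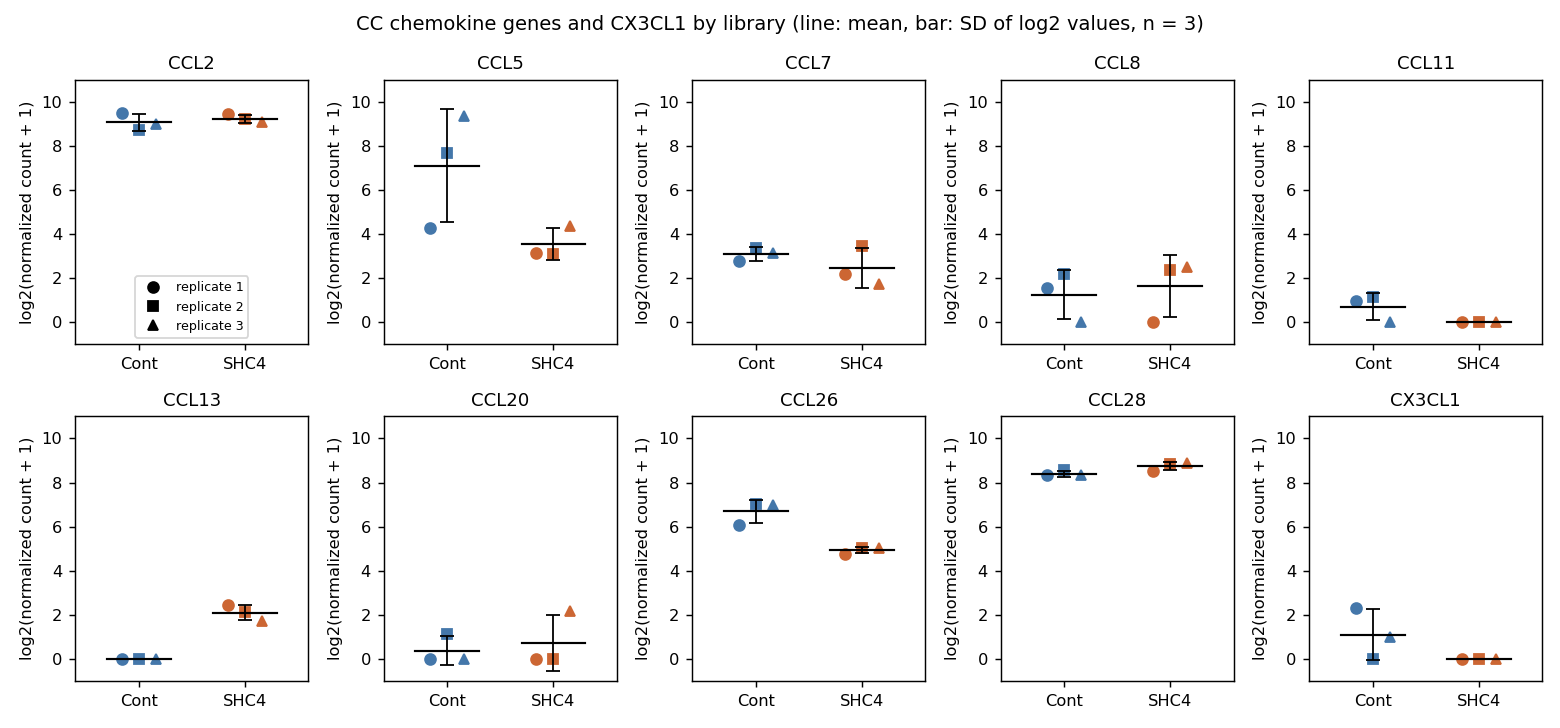
Log2(normalized count + 1) of each of the 10 genes in the 3 UE7T-9 Cont and 3 SHC4 libraries, with the mean (line) and SD of the log2 values (bar), on 1 common scale. CCL26 separates the groups downward and CCL13 upward at 2 to 5 reads, whereas CCL5 overlaps through control replicate 1.

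Across the 10 genes the mean was lower in the SHC4 libraries for 5 and higher for 5. The median log2 difference was -0.24 over the 10 genes, and -0.14 with all values raised to the floor of 3 reads, while the median of all 23040 genes tested was -0.004. The median over the 10 genes ran from -0.17 without control replicate 1 to -0.44 without control replicate 3. Its SD between libraries was 0.29, larger than the median itself. In 3 of the 10 genes a whole group was at 0 reads, so that their differences depend on the value added before taking logs. The 10 genes summed to a normalized count of 1137, 1138 and 1603 in the controls against 1103, 1113 and 1066 with added SHC4, and without CCL5 to 1118, 937 and 959 against 1095, 1105 and 1046. The sum of the other 9 genes therefore overlapped between the groups.

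To be called, a gene needed an absolute log2 fold change above 1 together with a p below 0.05 after Benjamini-Hochberg adjustment. Of the 10 genes, 7 had a mean of at least 1 and entered the limma fit, and CCL11, CCL20 and CX3CL1 did not. limma called 0 of them, and 4 of the 7 had an unadjusted p below 0.05, as did 14.4% of all genes tested. Over all 23040 genes limma called 0.00868% lower and 0.0521% higher. DESeq2, run on the recovered reads, called CCL5 and CCL26 lower and none higher among the 4 of the 10 genes (CCL2, CCL5, CCL26 and CCL28) that received an adjusted p, where 1.15% of all 16153 genes with an adjusted p were called lower and 1.05% higher. edgeR, which tested the same 4, called 0, against 0.00631% lower and 0.0568% higher of its 15859 genes. limma without control replicate 1 called CCL5 and CCL26 lower, against 1.47% lower and 1.59% higher of all genes. Groups that did not overlap were seen for CCL26 (lower) and CCL13 (higher), where 10.2% of all genes tested with limma lay wholly below and 9.13% wholly above. As the list was drawn up with this contrast known, nothing is read from these counts.

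**Figure D3:**
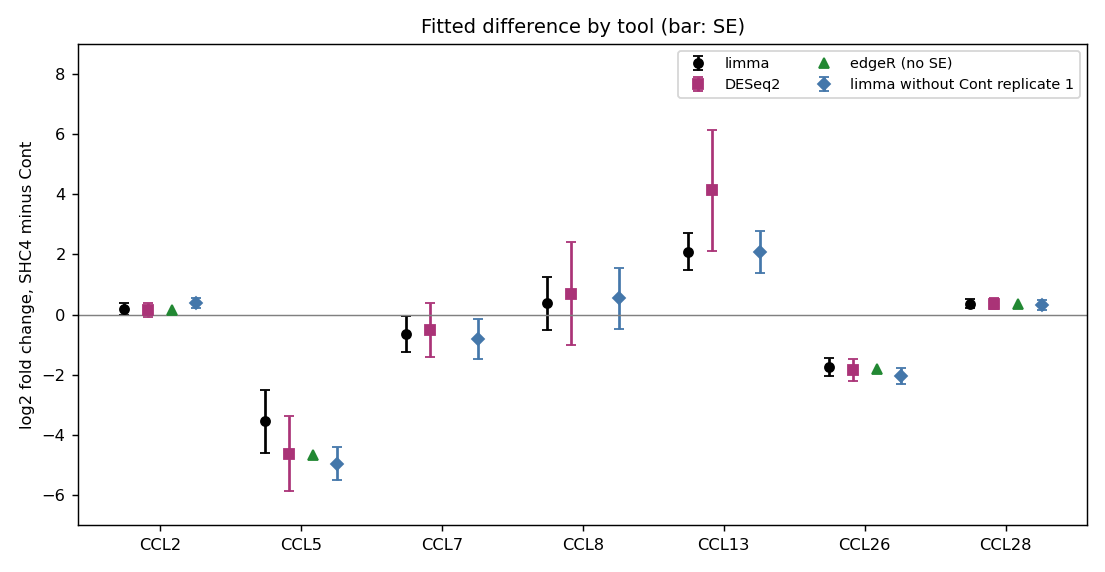
Log2 fold change (UE7T-9 SHC4 minus UE7T-9 Cont) of the 7 genes that entered the limma fit, from limma, DESeq2, edgeR and limma without control replicate 1, with standard errors as bars where the tool gives one. CCL5 and CCL26 lie below 0 in every fit shown, and CCL2 and CCL28 above it.

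Control replicate 1 had the lowest value of the 3 controls for CCL5, CCL7, CCL26 and CCL28. These are 4 of the 7 genes that entered the limma fit, against 38.8% of all genes tested, and the count is a description. CCL13, also in the fit, was at 0 in every control. For CCL2 control replicate 1 had the highest value. CCL5 and CCL26 followed each other over the 6 libraries (Pearson's r of log2 values 0.91), while CCL2 ran against CCL5 (-0.72). These coefficients include the difference between the groups and are a description over 6 libraries that share it.

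**Figure D4:**
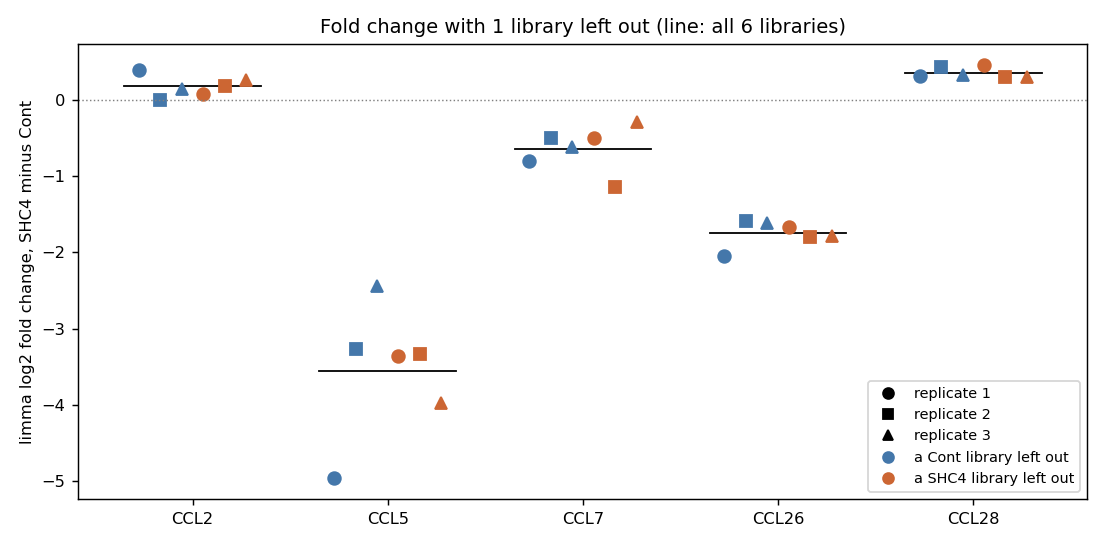
limma log2 fold change (UE7T-9 SHC4 minus UE7T-9 Cont) of the 5 genes with the most reads when 1 library is left out, coloured by the group of that library and shaped by its replicate number, with a line for all 6 libraries. CCL5 moves from -2.43 to -4.96, CCL26 stays between -1.59 and -2.05, and CCL2 reaches 0.

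CCL2, CCL5, CCL26 and CCL28 had no pattern common to all of them, since 5 of their 6 pairs correlated negatively. By the rule for named genes, 15853 candidates whose mean was 10 or more were ranked by Pearson's r over the 6 libraries with the mean z-score of these genes. The 8 closest were ZNF772, RPF2, TDO2, TMEM74, DOCK4, HERC3, ZDHHC21 and UBE2H, with r from 0.990 to 0.996. TDO2, which starts the breakdown of tryptophan, had the widest range of the 8 in fold terms. Its normalized count was 21.4, 37.7 and 63.0 in the controls against 7.03, 19.1 and 16.3 with added SHC4. With 6 libraries and this many candidates, values of r this high are a ranking only, and they describe likeness to an average of opposed profiles, not to each of the chemokine genes.

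Receptors of these ligands were measured in the same libraries, in a list of 15 genes of which 9 were listed and 8 tested. limma called 0 of the 8, edgeR 0 of 6 and DESeq2 0 of 6, beside the shares of all genes given above. Of the 8, 4 had an unadjusted limma p below 0.05, as did 14.4% of all genes tested. In the limma fit 6 receptor genes were lower and 2 higher with added SHC4. Their median log2 fold change was -0.76, against -0.004 over all genes tested. As the list was chosen with earlier results of these data known, nothing is read from these counts. ACKR4, a scavenger of other CC chemokines, was the most abundant, with 557, 1169 and 820 normalized counts in the controls against 450, 871 and 808 with added SHC4. CCR1, a receptor of CCL5 and CCL7, had 174, 339 and 409 in the controls against 56.2, 171 and 221 with added SHC4 (limma adjusted p = 0.324). CCRL2, a receptor-like protein that presents chemerin, had 34.1, 95.4 and 118 in the controls against 31.6, 35.8 and 26.8 with added SHC4. Like CCL5, CCRL2 was low in control replicate 1. In limma its log2 difference was -1.20 (standard error 0.44, adjusted p = 0.276), and it was the receptor gene called when that library was left out (adjusted p = 0.0124). CCR4 had 50.7, 191 and 27.5 in the controls against 36.9, 21.6 and 40.8 with added SHC4, which overlapped. CX3CR1, the receptor of CX3CL1, had at most 1.18 in any library.

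Genes with a known part in the induction of CC chemokines, called inducer genes here, formed a list of 21, of which 20 were listed and tested. The list also holds inhibitors such as NFKBIA and the decoy receptor IL13RA2, so its counts do not describe inducers alone. limma called 0 of 20, edgeR 0 of 19 and DESeq2 0 of 20. STAT6 and IL13RA2, 2 of the 20, had an unadjusted limma p below 0.05, as did 14.4% of all genes tested. Values were lower for 12 and higher for 8 with added SHC4. The median log2 fold change was -0.03, against -0.004 over all genes tested. For NFKB1, a subunit of NF-kappaB, limma gave -0.03 (standard error 0.12, adjusted p = 0.936), and for NFKBIA, an inhibitor that NF-kappaB itself induces, 0.03 (standard error 0.15, adjusted p = 0.955). RELA, another subunit, had 1004, 938 and 937 normalized counts in the controls against 1182, 1070 and 1083 with added SHC4, wholly above (limma 0.21 on the log2 scale, standard error 0.11, adjusted p = 0.435). IRF1, an interferon-induced factor, was wholly below, with 491, 483 and 482 against 469, 389 and 406 (limma -0.21 on the log2 scale, standard error 0.13, adjusted p = 0.506). STAT6, the factor through which interleukins of type 2 immunity induce CCL26, had 3450, 3646 and 3479 normalized counts in the controls against 4247, 4675 and 4575 with added SHC4. The 3 SHC4 libraries of STAT6 were thus above all controls, and limma put the difference at 0.35 on the log2 scale (standard error 0.12, adjusted p = 0.238). RELA, STAT6 and IRF1 were the genes of this list whose groups did not overlap, 2 above and 1 below. Of all genes tested with limma, 9.13% lay wholly above and 10.2% wholly below. A link of STAT6 to the CCL26 values was not tested. IL13RA2, a decoy receptor for interleukin 13, had 62.4, 438 and 267 in the controls against 15.8, 72.4 and 101 with added SHC4. In limma its log2 difference was -1.96 (standard error 0.79, limma adjusted p = 0.305, or 0.0388 without control replicate 1). CEBPB, a factor of inflammatory gene induction, and TNFRSF1A, a receptor of tumour necrosis factor, had log2 fold changes of 0.29 (standard error 0.18, limma adjusted p = 0.493) and 0.08 (standard error 0.17, limma adjusted p = 0.873).

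Chemokines are cut by proteases and held by proteoglycans after release. Of 12 such genes 11 were listed and tested. limma called 0 of 11, and 2 (MMP1 and SDC1) had an unadjusted p below 0.05, as did 14.4% of all genes tested. edgeR called 0 of 10 and DESeq2 1 of 11. Of all genes with an adjusted p, DESeq2 called 1.15% lower and 1.05% higher. In limma 4 had lower and 7 higher values (median log2 fold change 0.13, against -0.004 over all genes tested). The gene that DESeq2 called was MMP3, a stromelysin that trims several CC chemokines. MMP3 had 2.92, 118 and 66.9 normalized counts in the controls against 8.79, 3.33 and 9.32 with added SHC4. Once more control replicate 1 lay with UE7T-9 SHC4. DESeq2 put MMP3 at -3.14 on the log2 scale (standard error 0.91, adjusted p = 0.0214) and limma at -2.06 (standard error 1.10, adjusted p = 0.433). Without control replicate 1 limma called MMP3, at -3.56 (standard error 0.52, adjusted p = 0.00703). MMP1, a collagenase, had 1251, 4939 and 1304 in the controls against 868, 514 and 862 with added SHC4. It was the gene of this list whose groups did not overlap, where 10.2% of all genes tested lay wholly below. In limma its log2 difference was -1.46 (standard error 0.47, adjusted p = 0.224). MMP2, a gelatinase that cuts CCL7, had 51279, 42374 and 35709 in the controls against 40235, 144602 and 96040 with added SHC4, and the groups overlapped through SHC4 replicate 1. DPP4, a peptidase that trims the start of CCL5 and CCL11, had 2705, 6421 and 5984 in the controls against 2419.5, 11309.5 and 10944 with added SHC4. MMP14, the proteoglycan GPC1 and ADAM10, a protease that can shed CX3CL1, had limma log2 fold changes of 0.18, 0.24 and 0.11 with standard errors of 0.33, 0.26 and 0.21.

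**Figure D5:**
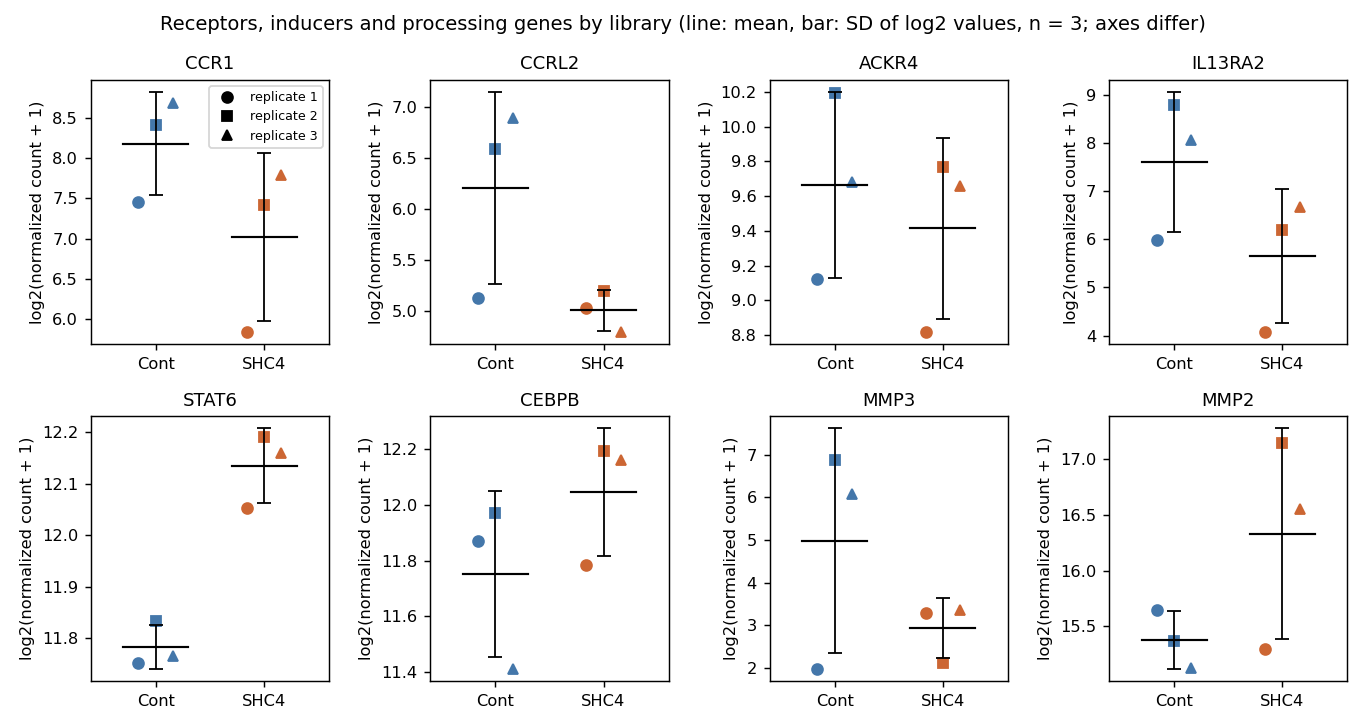
Log2(normalized count + 1) of 8 receptor, inducer and processing genes in the 3 UE7T-9 Cont and 3 SHC4 libraries, with the mean (line) and SD of the log2 values (bar); the axes differ between panels. Control replicate 1 is the lowest control for CCR1, CCRL2, ACKR4, IL13RA2, STAT6 and MMP3.

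The CC ligand genes outside the 10 formed a list of 18, of which 8 were listed and 4 tested. limma called 0 of 4, edgeR 0 of 2 and DESeq2 0 of 3. An unadjusted limma p below 0.05 was seen for 0 of 4, against 14.4% of all genes tested. CCL3, a ligand of CCR1, had 108, 545 and 124 normalized counts in the controls against 75.6, 134 and 256 with added SHC4. CCL18 had 20.5, 81.2 and 12.8 against 17.6, 35.8 and 38.4, and both genes were highest in control replicate 2. This differs from CCL5, for which control replicate 3 was the highest. CCL4 had 10.7, 17.7 and 0 in the controls against 0.879, 0.832 and 1.16 with added SHC4, and CCL3L3 stayed between 6.66 and 10.8. CCL3 and CCL3L3 are near-identical copies, as are CCL4 and CCL4L2, so their reads could be split between the copies.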

How the data were processed

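RNA of 3 UE7T-9 Cont and 3 UE7T-9 SHC4 samples was prepared with the NEBNext Ultra RNA kit and sequenced on a NovaSeq system. The submitters' processing notes name HISAT2 2.0.5, featureCounts 1.5.0-p3 and DESeq2, and the genome build, annotation and strand setting are not given in the sources used here. The authors deposited a signal for each gene, the featureCounts count over a size factor. Every value (100%, tolerance 0.01 reads) was a whole multiple of that of 1 read, so reads were recovered by division. Symbols were found for 27968 of 28181 Ensembl identifiers.

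The main test was limma 3.58.1 in R 4.3.3 (lmFit, eBayes with trend) on log2(value + 1), for genes with a mean of at least 1. A fold change on this scale understates low genes. DESeq2 1.42.0 and edgeR 4.0.16 (quasi-likelihood, TMM) on the recovered reads, other scalings, filters and pseudocounts, a replicate block and leaving out each library were alternatives. All fits covered all genes that passed their filter, with Benjamini-Hochberg adjustment. The main limma fit, DESeq2 and edgeR, each with every library, were tested on simulated counts. The other scalings, filters and pseudocounts, the replicate block and the fits lacking a library were not. Floors cover counting error only. No libraries were duplicates (lowest mean chi-square per gene 13.1, with 1 for sampling noise).

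The genes and lists were chosen with earlier results of these data known. Named beside the 10 genes are those of each list that a tool called, up to 4 with the highest mean, and the 8 most similar in pattern. Any other was chosen after its values were seen, as were IL13RA2, CX3CR1, NFKB1, NFKBIA, ADAM10, MMP1, SDC1, CCL4L2, RELA, IRF1, THY1 and PDGFRB. Some genes of the lists are not reported here by name.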

Additional observations from a re-analysis of the deposited data

How the results depend on the processing

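The counts of all genes called were 12 higher and 2 lower. They were 22 and 6 under library size scaling, 20 and 4 under TMM normalization, 31 and 9 with no filter on low values, 170 and 185 in DESeq2, and 25 and 14 with the replicate number as a block (replicate block). The lower count alone moved to 1 with pseudocount 0.1 and to 1 in edgeR. With each library left out the counts ran from 1 to 367 higher and from 0 to 339 lower, the highest without control replicate 1 and 49 and 14 without SHC4 replicate 1. The causes were not tested. Of the 10 chemokine genes, 2 were called lower in DESeq2 and 0 to 2 with a library left out, and 0 with the replicate block. The replicate block called 1 inducer gene (IL13RA2) and DESeq2 1 processing gene (MMP3). With a library left out, 0 to 1 receptor, 0 to 1 inducer and 0 to 1 processing genes were called, each 1 without control replicate 1, where 2 mesenchymal markers (THY1 and PDGFRB) were called as well. The correlation of deviations between libraries with the same number was 0.148, 0.013 and -0.00696, so the numbers are not taken as pairs. The sign of CCL2 turned without control replicate 2 (log2 fold change -0.0001032, against up to 0.39 without control replicate 1), and that of CCL8 without control replicate 3 (-0.25) or SHC4 replicate 3 (-0.06), with up to 1.19 without SHC4 replicate 1. The median over the 10 genes could not be computed for a mean of at least 10 or in edgeR, which drop some of them. At 0 to 5 reads, differences in CCL8, CCL11, CCL13, CCL20 and CX3CL1 are limited by depth.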

Other observations

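The genes closest to CCL5 and to CCL26 alone were looked up after the values were seen. For CCL5 the 5 closest of 15853 genes over the 6 libraries were SLC16A12, EIF4E, ENC1, DCP1A and HSPA4 (Pearson's r 0.997 to 0.998). SLC16A12, a membrane transporter, had 53.6, 160.1 and 247 normalized counts in the controls against 38.7, 35.8 and 50.1 with added SHC4. It was thus ordered as CCL5 within the controls, with control replicate 1 lowest. For CCL26 the 5 closest were PCDH9, EMC3-AS1, SLC26A4, PDE2A and FNDC3B (r 0.990 to 0.994). PCDH9, the closest, had 400, 519 and 510 in the controls against 224, 248 and 266 with added SHC4. SLC26A4, the anion exchanger pendrin, had 188, 372 and 354 in the controls against 109, 111 and 125 with added SHC4. These are rankings over 6 libraries that share the difference between the groups.

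Of the 8 receptor genes tested, CCR7 lay wholly below and CCR10 wholly above the controls, near the shares over all genes tested (10.2% and 9.13%), and they were named after that was seen. CCR7, the receptor of CCL19 and CCL21, had 31.2, 31.8 and 35.4 normalized counts in the controls against 18.5, 21.6 and 12.8 with added SHC4 (limma log2 fold change -0.89, standard error 0.35, adjusted p = 0.2997). CCR10, a receptor of CCL28, had 33.1, 9.42 and 18.7 in the controls against 44.8, 40.8 and 33.8 with added SHC4 (limma log2 fold change 1.08, standard error 0.45, adjusted p = 0.323). Neither was called by limma, DESeq2 or edgeR.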
